A study of Homo sapiens with 3 samples.

Results

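The genes of the mitochondrial protein import machinery were followed in PC3 cells after knockdown of USP16. They were chosen by symbol, as every TOMM and TIMM gene with a number, without pseudogenes and antisense genes, together with PAM16, SAMM50, MTX1, MTX2, GRPEL1, GRPEL2, PMPCA, PMPCB, CHCHD4, GFER and OXA1L. The rule found 36 genes among the 60930 entries of the expression table. It used symbols and no values, but was set with earlier results of these data known. Of these, 35 reached a mean of 1 TPM over the 3 libraries and entered the comparisons, among 13637 tested genes. TPM counts transcripts out of a fixed library total and is a level corrected for transcript length, so levels of different genes can be set side by side.

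The study used RNA-seq to ask which transcripts change when USP16, a deubiquitinase, is depleted from prostate cancer cells. PC3 is an androgen-independent human prostate cancer line. All 3 groups were PC3 cells carrying a pLKO.1 lentiviral construct and selected with puromycin, with 1 library each. The shCON group carried the vector control, the shUSP16#1 group carried a first hairpin against USP16, and the shUSP16#2 group carried a second hairpin against the same gene. Both knockdown libraries were compared with the same shCON library, so the comparisons are not independent of each other. With 1 library per condition there is no replicate check, no test across samples and no p-value. A gene is called lower or higher here when its log2(TPM + 1) value differed by at least 1.5-fold, which is 0.58 on the log2 scale, and this limit only describes these libraries.

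Most mitochondrial proteins are made in the cytosol and have to cross or enter the mitochondrial membranes. The TOM complex forms the entry gate in the outer membrane, and the SAM complex inserts barrel proteins there. Small TIM chaperones carry hydrophobic proteins through the intermembrane space to the TIM22 carrier translocase. The TIM23 translocase passes proteins with a cleavable presequence across the inner membrane, where a motor built on the chaperone HSPA9 pulls them in and the processing peptidase removes the presequence.

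USP16 (chr21:29024629-29054488) was at 19.92 TPM with shCON, 3.50 TPM with shUSP16#1 and 1.08 TPM with shUSP16#2. It was therefore low in both knockdown libraries, with log2 fold changes of -2.22 and -3.33. KRT8, KRT18, EPCAM, VIM, CD44 and AXL, which mark PC3 cells, lay between 40.48 and 1005.42 TPM in every library, but summed to 3142, 2279 and 2467 TPM in shCON, shUSP16#1 and shUSP16#2. VIM (log2 fold changes of -0.68 and -1.23) and EPCAM (-0.72 and -1.0) were past 1.5-fold under both hairpins and CD44 (-0.73) under shUSP16#1. PTPRC, PECAM1, COL1A1, ALB and CD3E, which mark other cell types, summed to 4.47, 11.53 and 6.20 TPM in shCON, shUSP16#1 and shUSP16#2, and the highest value was 10.71 TPM, of COL1A1 under shUSP16#1. Over all tested genes the median log2 fold change was -0.17 under shUSP16#1 and -0.37 under shUSP16#2, so values lower than shCON were the rule in both libraries. As TPM has a fixed total, these are changes of share. Protein-coding genes held 93.1%, 95.1% and 88.2% of TPM in shCON, shUSP16#1 and shUSP16#2. The 10 most abundant genes of each library held 8.43%, 11.6% and 9.96%. The part of these shares in the medians was not tested. In bulk RNA, fewer cells of one kind and less RNA per cell cannot be told apart.

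The antisense strands of both hairpins are shown 5′ to 3′ as DNA, because the knockdown and any partial pairing with import transcripts depend on them. Capitals mark the seed, bases 2 to 8.
shUSP16#1: aTAAACATgatttcttctggc
shUSP16#2: aAATCTTGtggaatatcaccg
A match to all 21 bases was found in the longest transcript of USP16 and of no other tested gene for either hairpin.

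As a set, the import genes were close to the background of all tested genes. Their median log2 fold change was -0.20 under shUSP16#1 and -0.24 under shUSP16#2. Values ran from -1.0 to 0.52 under shUSP16#1 and from -1.38 to 0.32 under shUSP16#2. Under shUSP16#1, 6 of the 35 genes (17.1%) were at least 1.5-fold lower, where 23.2% of all tested genes were, and 0 were at least 1.5-fold higher, where 8.72% were. Under shUSP16#2, 12 of the 35 (34.3%) were lower, where 38.5% of all tested genes were, and 0 were higher, where 7.32% were. Under both hairpins, 5 genes (14.3%) were at least 1.5-fold lower, namely TOMM20, TOMM70, TIMM21, GRPEL1 and GRPEL2, beside 20.8% of all tested genes. With the median change of all tested genes subtracted, TOMM20 alone of the 5 still passed and TIMM17B was higher under both hairpins, and with the GC trend removed none of the 5 passed. As deposited, none was at least 1.5-fold higher under both, beside 4.03% of all tested genes. Without any limit on size, 24 of the 35 genes were lower than shCON under both hairpins and 6 were higher under both, that is 68.6% and 17.1% where all tested genes gave 57.2% and 24.5%. The remaining 5 moved in opposite directions.

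**Figure D1:**
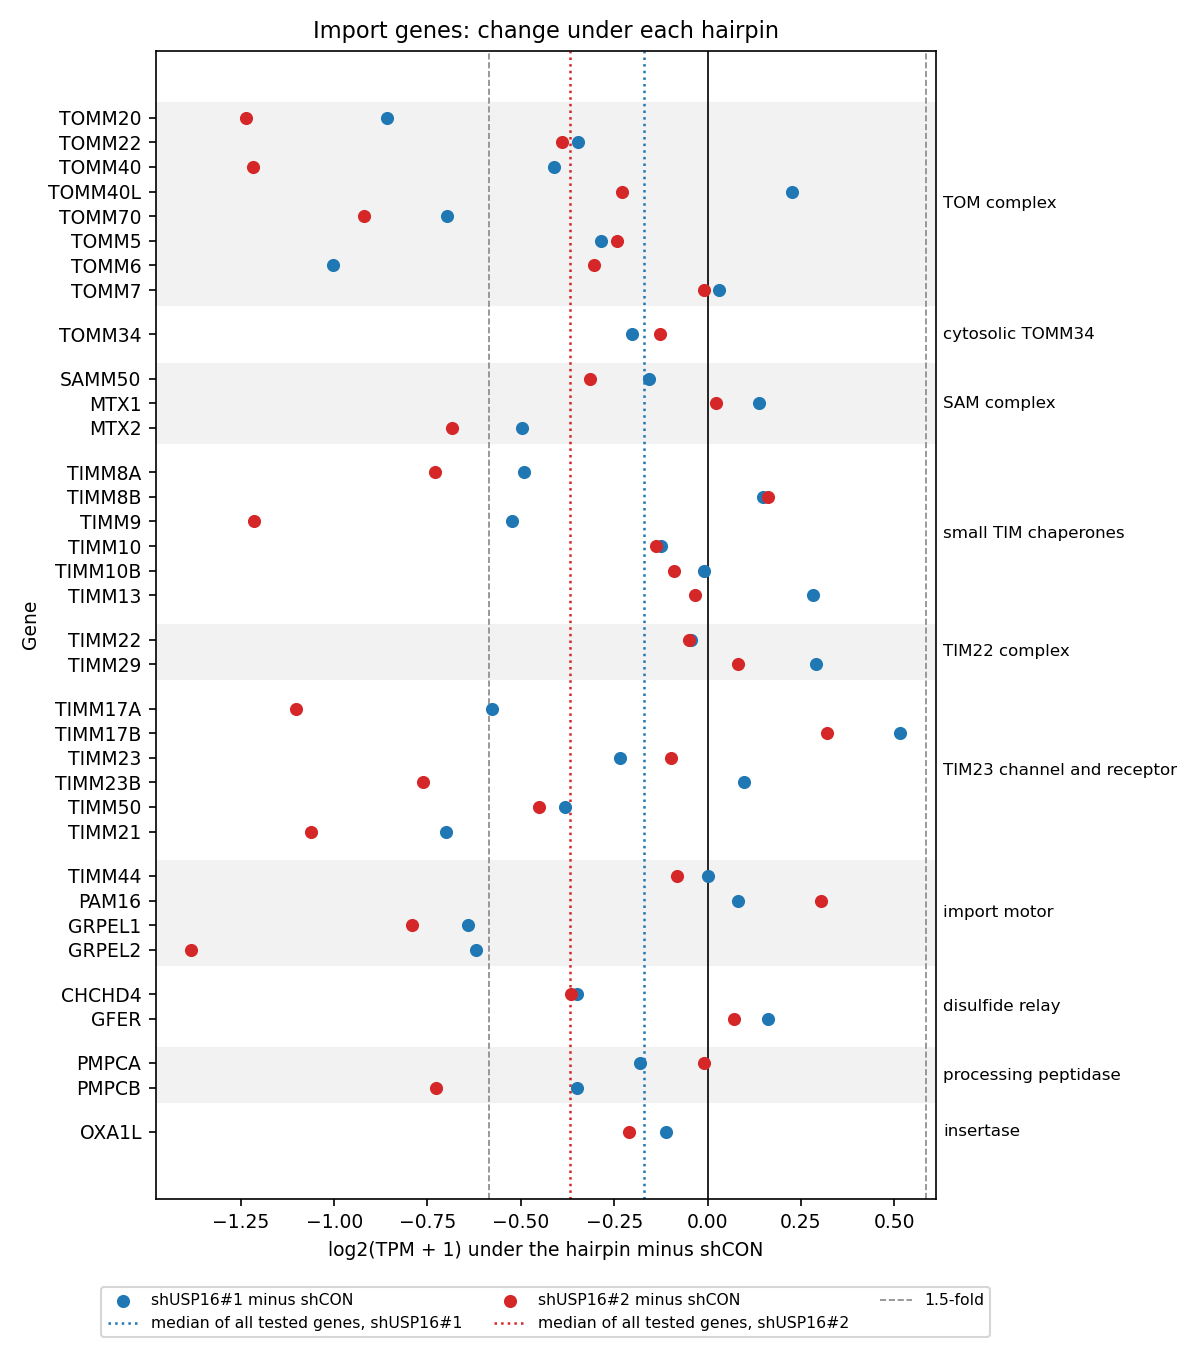
Log2 fold change of 35 import genes against shCON, on the log2(TPM + 1) scale, with 1 row per gene and the genes grouped by complex. Blue points are shUSP16#1 and red points shUSP16#2, dotted lines are the medians of all tested genes (-0.17 and -0.37) and dashed lines are 1.5-fold. No gene lies beyond the dashed line on the higher side.

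Levels differed far more between import genes than between libraries. In shCON the 35 genes ran from 12.19 TPM, in TIMM23B, to 481.67 TPM, in TOMM6, with a median of 61.27 TPM. The median was 49.88 TPM under shUSP16#1 and 44.60 TPM under shUSP16#2. Summed over the 36 genes, the import transcripts made up 3302 TPM with shCON, 2774 TPM with shUSP16#1 and 2740 TPM with shUSP16#2, or 0.330%, 0.277% and 0.274% of all TPM. The sums under the hairpins were 0.840 and 0.830 times that of shCON. Without TOMM6, the most abundant member, they were 0.898 and 0.833 times, so TOMM6 held much of the difference under shUSP16#1 and little of it under shUSP16#2.

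**Figure D2:**
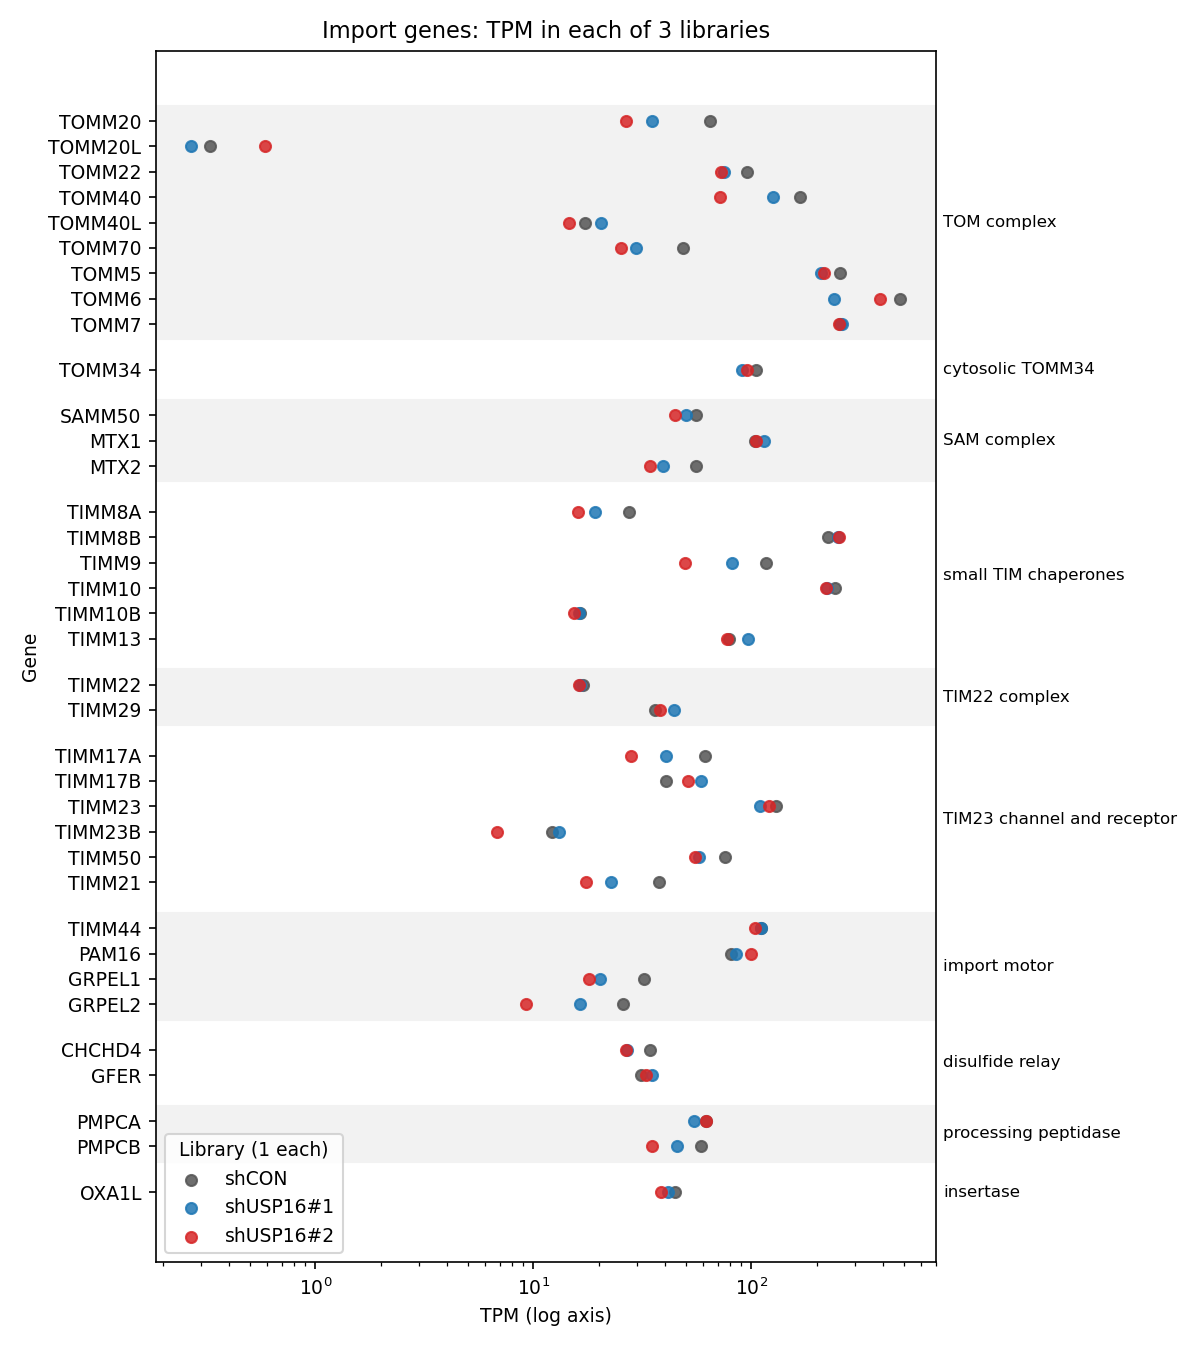
TPM of the 36 import genes in the shCON, shUSP16#1 and shUSP16#2 libraries, on a log axis, with 1 point per library. The small subunits TOMM5, TOMM6 and TOMM7 and the chaperones TIMM8B and TIMM10 lie highest, and TOMM20L lies below 1 TPM in every library.

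Of the 3 receptor genes of the TOM complex, TOMM20 and TOMM70 were at least 1.5-fold lower under both hairpins and TOMM22 under neither. TOMM20 (chr1:235109336-235128936), a receptor for presequences, was at 64.34 TPM with shCON, 35.02 TPM with shUSP16#1 and 26.73 TPM with shUSP16#2, with log2 fold changes of -0.86 and -1.24. TOMM70 (chr3:100363431-100401398), a receptor for carrier proteins delivered by cytosolic chaperones, was at 48.72, 29.65 and 25.26 TPM in the same order, with log2 fold changes of -0.70 and -0.92. TOMM22, the central receptor, was at 95.33, 74.68 and 72.53 TPM, which did not reach 1.5-fold (-0.35 and -0.39). TOMM20L, a relative of TOMM20, was at 0.33, 0.27 and 0.59 TPM, under the minimum, so nearly all transcript of this pair came from TOMM20.

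The pore gene TOMM40 differed between the hairpins. TOMM40 (chr19:44890569-44903689), which forms the channel of the outer membrane, was at 167.79 TPM with shCON, 125.85 TPM with shUSP16#1 and 71.65 TPM with shUSP16#2. The log2 fold change of TOMM40 was -0.41 under shUSP16#1, inside the limit, and -1.22 under shUSP16#2. Its relative TOMM40L was at 17.26, 20.37 and 14.57 TPM, with log2 fold changes of 0.23 and -0.23. The ratio of TOMM40 to TOMM40L was 9.72 with shCON, 6.18 with shUSP16#1 and 4.92 with shUSP16#2.

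The small subunits of the TOM complex, which help to assemble and hold the pore, did not move together. TOMM6 (chr6:41787662-41789898) was at 481.67 TPM with shCON, 239.85 TPM with shUSP16#1 and 389.74 TPM with shUSP16#2. It had the largest decrease of the import genes under shUSP16#1 (-1.0) and a decrease under shUSP16#2 (-0.30) within the limit. TOMM5 was at 255.41, 209.47 and 215.82 TPM, and TOMM7 was at 254.87, 260.28 and 253.42 TPM. The TOMM7 values thus spanned only a few TPM, while TOMM6 was far apart in one library. TOMM34, a cytosolic cochaperone named with this family, was at 104.59, 90.77 and 95.76 TPM. The sum over the 9 TOM genes was 1386 TPM with shCON, 995.4 TPM with shUSP16#1 and 1070 TPM with shUSP16#2.

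In the SAM complex, the channel gene SAMM50, whose product folds barrel proteins into the outer membrane, was at 55.70, 49.88 and 44.60 TPM in shCON, shUSP16#1 and shUSP16#2, with log2 fold changes of -0.16 and -0.31. Its partners differed from each other. MTX1 was at 103.52, 114 and 105.19 TPM (0.14 and 0.02), and MTX2 was at 55.74, 39.24 and 34.29 TPM (-0.50 and -0.69). The ratio of MTX1 to MTX2 was therefore 1.86 in shCON, 2.91 under shUSP16#1 and 3.07 under shUSP16#2. Their GC content differs (63.4% for MTX1 and 42.4% for MTX2), and with the GC trend of all genes removed, as described below, the difference between their log2 fold changes turned from 0.63 to -0.05 under shUSP16#1 and from 0.71 to -0.33 under shUSP16#2. A pseudogene copy, MTX1P1, was listed at 8.34, 4.99 and 5.26 TPM, so reads of MTX1 may be divided between both entries.

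The small TIM chaperones ranged from little difference to a strong decrease. TIMM9 (chr14:58408494-58427614) was at 117.11 TPM with shCON, 81.15 TPM with shUSP16#1 and 49.85 TPM with shUSP16#2, with log2 fold changes of -0.52 and -1.22. TIMM10, with which TIMM9 forms a ring-shaped chaperone, was at 242.67, 222.47 and 220.62 TPM (-0.12 and -0.14). The ratio of TIMM9 to TIMM10 was 0.483 in shCON, 0.365 with shUSP16#1 and 0.226 with shUSP16#2. With the GC trend removed, the difference between their log2 fold changes went from -0.40 to -0.0092 under shUSP16#1 and from -1.08 to -0.51 under shUSP16#2. TIMM10B, a relative of TIMM10 that docks this ring at the TIM22 complex, was at 16.33, 16.23 and 15.29 TPM, and the ratio of TIMM10 to TIMM10B stayed between 13.7 and 14.9. TIMM8A, whose loss causes a deafness and dystonia syndrome, was at 27.40, 19.19 and 16.11 TPM (-0.49 and -0.73). TIMM8B was at 225.08, 249.75 and 252 TPM (0.15 and 0.16), so TIMM8A made up 10.9% of the pair in shCON, 7.14% under shUSP16#1 and 6.01% under shUSP16#2. TIMM13, the partner of the TIMM8 proteins, was at 79.33, 96.78 and 77.47 TPM.

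The core of the TIM22 translocase, which inserts carrier proteins into the inner membrane, showed only differences inside the 1.5-fold limit. TIMM22, its channel, was at 16.87 TPM with shCON, 16.33 TPM with shUSP16#1 and 16.28 TPM with shUSP16#2. Its partner TIMM29 was at 36.06, 44.33 and 38.23 TPM, with log2 fold changes of 0.29 and 0.08. Neither gene reached 1.5-fold. With the GC trend removed, TIMM22 (GC content 51.7%) was at -0.06 and -0.05, and TIMM29 (61.1%) turned to -0.06 and -0.41.

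Within the TIM23 translocase the TIMM17 paralogs changed order. TIMM17A (chr1:201955491-201970661) was at 61.27 TPM with shCON, 40.70 TPM with shUSP16#1 and 27.99 TPM with shUSP16#2, with log2 fold changes of -0.58 and -1.10, the first of them just inside the 1.5-fold limit. TIMM17B (chrX:48893447-48898143) was at 40.63, 58.54 and 50.96 TPM, with log2 fold changes of 0.52 and 0.32, the largest increases of any import gene under each hairpin. TIMM17A was thus the more abundant of the pair in shCON and the less abundant in both knockdown libraries, and its share of the pair was 60.1%, 41.0% and 35.5%. Their longest transcripts differ widely in GC content, 40.6% for TIMM17A and 60.2% for TIMM17B. With the trend of all genes with GC content removed, as described below, the difference between their log2 fold changes went from -1.09 to -0.40 under shUSP16#1 and from -1.42 to -0.34 under shUSP16#2.

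The channel gene TIMM23 was at 129.13, 109.63 and 120.55 TPM, with log2 fold changes of -0.23 and -0.10. TIMM50, the receptor that hands presequences to TIMM23, was at 75.48, 57.65 and 54.89 TPM (-0.38 and -0.45). TIMM21 (chr18:74148511-74160530), which links the TOM and TIM23 complexes, was at 37.63, 22.79 and 17.51 TPM (-0.70 and -1.06), lower than shCON by more than 1.5-fold in both libraries. TIMM23B (chr10:49942033-49974850) was at 12.19, 13.11 and 6.78 TPM. TIMM23B is a near-identical copy of TIMM23 and overlaps the read-through gene TIMM23B-AGAP6, at 12.76, 9.63 and 5.59 TPM, so its level is uncertain.

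**Figure D3:**
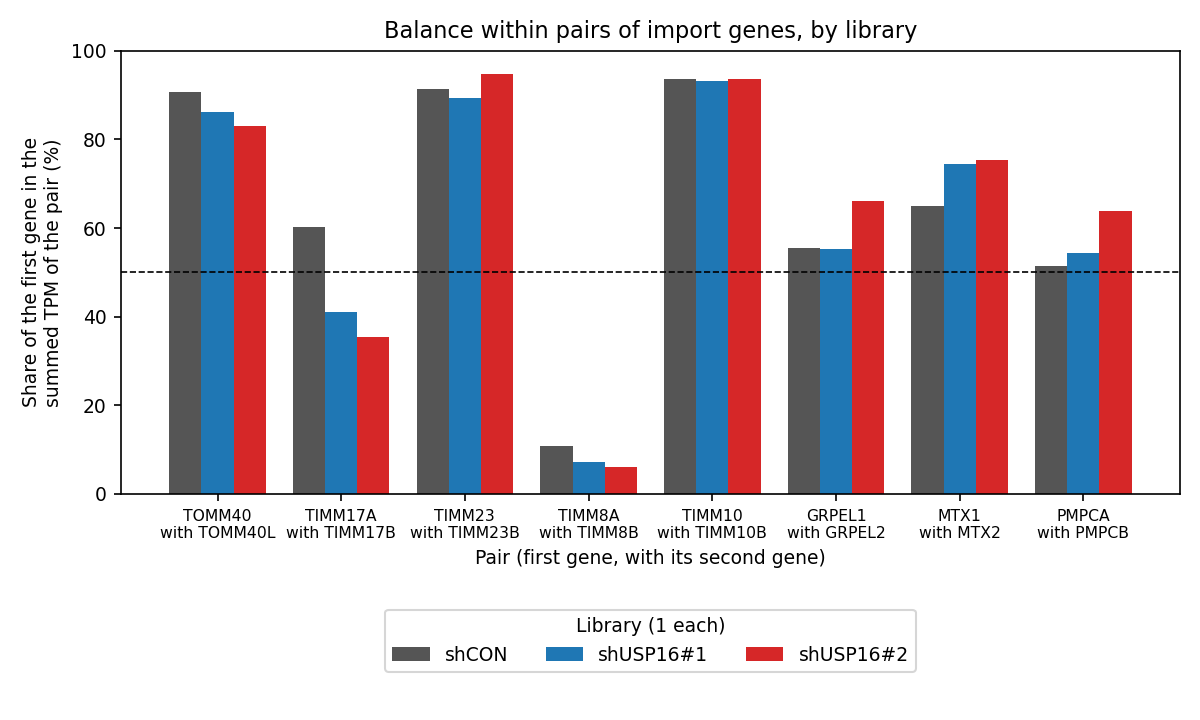
Share of the first gene in the summed TPM of 8 pairs of import genes in the shCON, shUSP16#1 and shUSP16#2 libraries, in percent, with 1 bar per library and a dashed line at 50%. TIMM17A lies above the line in shCON (60.1%) and below it under both hairpins (41.0% and 35.5%), and the other pairs keep their order in all 3 libraries.

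The import motor was divided as well in the values as deposited. GRPEL1 (chr4:7058906-7068197) and GRPEL2 (chr5:149345430-149354583) encode the nucleotide exchange factors of HSPA9, and both were lower under both hairpins. GRPEL1 was at 32.03 TPM with shCON, 20.18 TPM with shUSP16#1 and 18.09 TPM with shUSP16#2, with log2 fold changes of -0.64 and -0.79. GRPEL2 was at 25.70, 16.36 and 9.24 TPM, with log2 fold changes of -0.62 and -1.38, the latter the largest decrease of any import gene under shUSP16#2. TIMM44, which tethers HSPA9 to the channel, was at 110.42, 110.45 and 104.22 TPM, and PAM16, a regulatory subunit, was at 80.26, 84.92 and 99.26 TPM. As deposited, the exchange factors were thus at least 1.5-fold lower, while the tether and the regulatory subunit were not. GC content was 46.3% for GRPEL1, 38.9% for GRPEL2, 59.6% for TIMM44 and 57.6% for PAM16. With the GC trend removed, GRPEL1 was at -0.52 and -0.60 and GRPEL2 at -0.19 and -0.72. TIMM44 was then at -0.29 and -0.59 and PAM16 at -0.15 and -0.09. None of these genes then passed 1.5-fold under both hairpins, and TIMM44 passed narrowly under shUSP16#2, where the exchange factors also passed. With GC content taken from the transcript nearest the deposited length instead, GRPEL2 (-0.69) passed under shUSP16#2. TIMM44 (-0.50) and GRPEL1 (-0.56) did not. PAM16 overlaps the read-through gene CORO7-PAM16, at 4.22, 3.60 and 2.61 TPM.

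The disulfide relay, which folds small cysteine-rich proteins in the intermembrane space, showed no difference of 1.5-fold. CHCHD4, the oxidoreductase, was at 34.44, 26.80 and 26.51 TPM (-0.35 and -0.37). GFER, which reoxidises CHCHD4, was at 31.31, 35.17 and 32.92 TPM (0.16 and 0.07). In the processing peptidase, the non-catalytic subunit PMPCA was at 62.20, 54.71 and 61.81 TPM, and the catalytic subunit PMPCB was at 58.57, 45.79 and 34.97 TPM, with log2 fold changes of -0.35 and -0.73. The ratio of PMPCA to PMPCB was 1.06 with shCON, 1.19 with shUSP16#1 and 1.77 with shUSP16#2. This order also turned with the GC trend removed (GC content 59.7% and 39.6%), from 0.17 to -0.61 and from 0.72 to -0.47 as the difference between their log2 fold changes. OXA1L, the insertase for proteins made inside mitochondria, was at 44.71, 41.29 and 38.49 TPM (-0.11 and -0.21).

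The hairpins were also compared with each other. Levels were lower under shUSP16#2 than under shUSP16#1 for 28 of the 35 genes (80%), and for 73.4% of all tested genes. The difference reached 1.5-fold for TIMM9, TOMM40, GRPEL2 and TIMM23B, 4 of the 35 genes (11.4%), beside 16.6% of all tested genes. TOMM6 alone was at least 1.5-fold higher under shUSP16#2 than under shUSP16#1, beside 3.39% of all tested genes. Under shUSP16#2, TOMM20, TOMM40, TIMM9, TIMM17A, TIMM21 and GRPEL2 were at least 2-fold lower than shCON, 6 of the 35 genes, beside 19.5% of all tested genes. At this stricter limit 0 import genes were lower under both hairpins, where 4.60% of all tested genes were. A further 8 genes were at least 1.5-fold lower under 1 hairpin only. These were TOMM6 under shUSP16#1 (1 of 35, 2.86%, beside 2.4% of all tested genes) and TOMM40, MTX2, TIMM8A, TIMM9, TIMM17A, TIMM23B and PMPCB under shUSP16#2 (7 of 35, 20%, beside 17.7%), so both shares were close to the background.

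The order of the import genes by fold change followed the GC content of their transcripts. Over the 35 genes, Spearman's rho between GC content and log2 fold change was 0.68 under each hairpin. Over the 13296 tested genes with a GC value it was 0.54 under shUSP16#1 and 0.64 under shUSP16#2. These are correlations across genes of the same libraries, and genes are not independent replicates. In the 12 import genes of lowest GC content (38.9% to 46.1%), among them GRPEL2, PMPCB, TIMM17A, TIMM9, TOMM20, TIMM21 and TOMM70, the log2 fold changes had medians of -0.51 and -0.83. All tested genes in this range of GC content gave -0.49 and -0.82. In the 11 import genes of middle GC content (46.3% to 51.7%) the medians were -0.23 and -0.30, where all tested genes gave -0.23 and -0.45. In the 12 import genes of highest GC content (53.4% to 63.6%), among them TIMM17B, TIMM29, GFER, MTX1 and TIMM13, the medians were 0.11 and -0.02, where all tested genes of that range gave 0.10 and 0.03. Transcript length also moved with the change, with a rho of -0.33 and -0.46 over the import genes and -0.29 and -0.33 over all tested genes. The part of base composition and of length in the fold changes of the import genes was not tested.

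**Figure D4:**
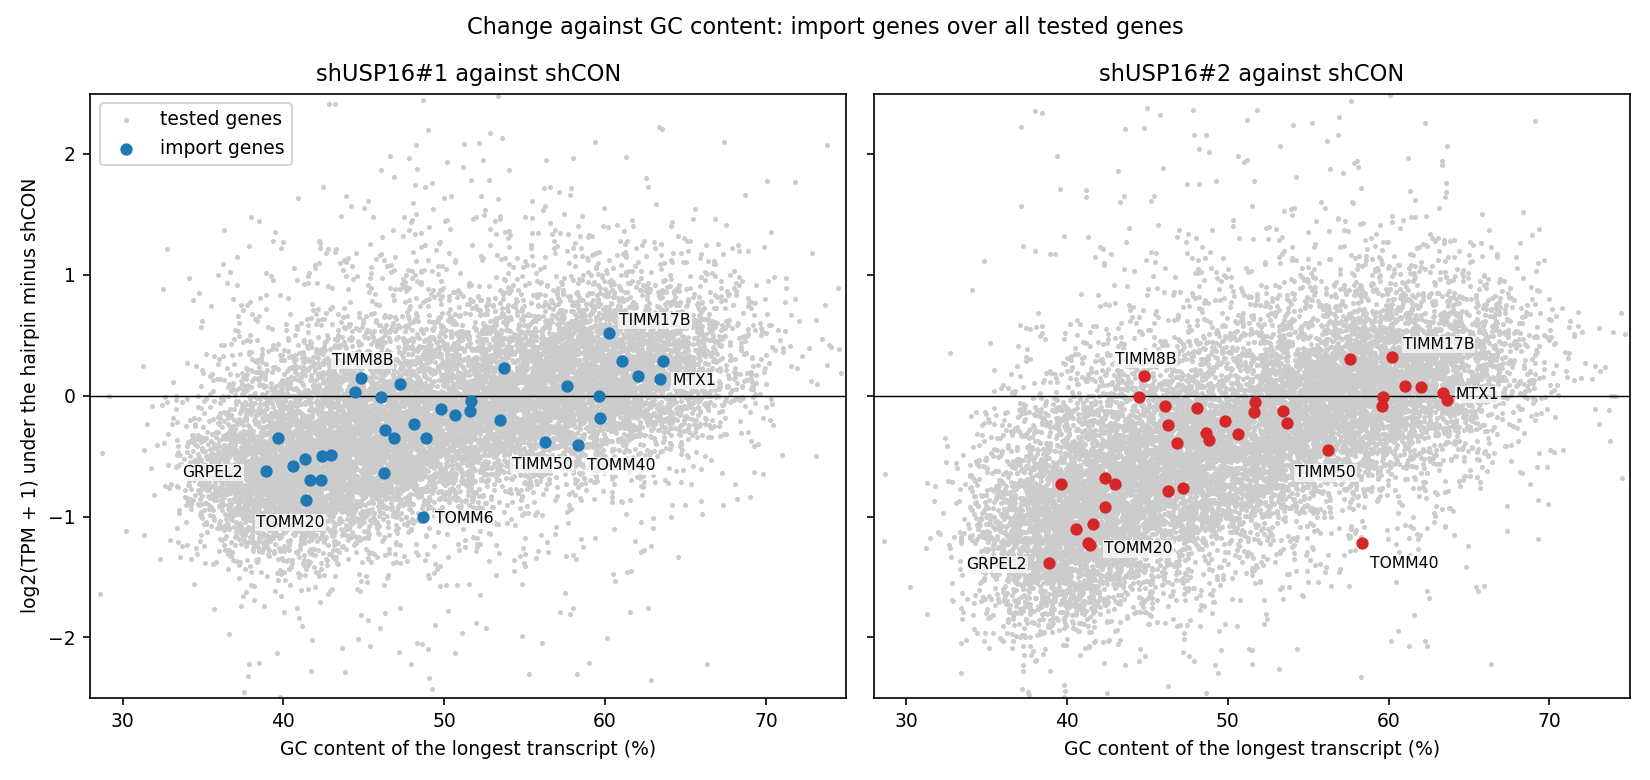
Log2 fold change against shCON on the log2(TPM + 1) scale, plotted over the GC content of the longest transcript, for import genes (coloured) and all tested genes (grey), with shUSP16#1 on the left and shUSP16#2 on the right. Import genes follow the grey cloud (rho 0.68 under each hairpin), TOMM6 lies towards its lower edge under shUSP16#1 and TOMM40 towards its lower edge under shUSP16#2, and genes beyond the axis limits are not drawn.

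With the median change of genes of like GC content subtracted and the overall median added back, a different set of import genes passed the limit. The 5 genes named above no longer did under both hairpins. GRPEL1 came closest, at -0.52 and -0.60, and TOMM20 was at -0.48 and -0.67. TOMM40 (-0.69 and -1.66) and TIMM50 (-0.65 and -0.79; chr19:39480412-39493785) were at least 1.5-fold lower under both hairpins instead, 2 of the 35 genes (5.71%), beside 12.3% of all tested genes, and 0 were higher, beside 2.38%. TOMM40 and TIMM50 are rich in GC (58.3% and 56.3%). Genes of like GC content had median changes of 0.10 and 0.07 for TOMM40 and of 0.09 and -0.04 for TIMM50. TOMM6 kept its decrease under shUSP16#1 (-0.94). TIMM8B lay above the trend of its GC content, at 0.38 and 0.44. The medians of the import genes became -0.19 and -0.39, beside -0.18 and -0.37 for all tested genes.

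**Figure D5:**
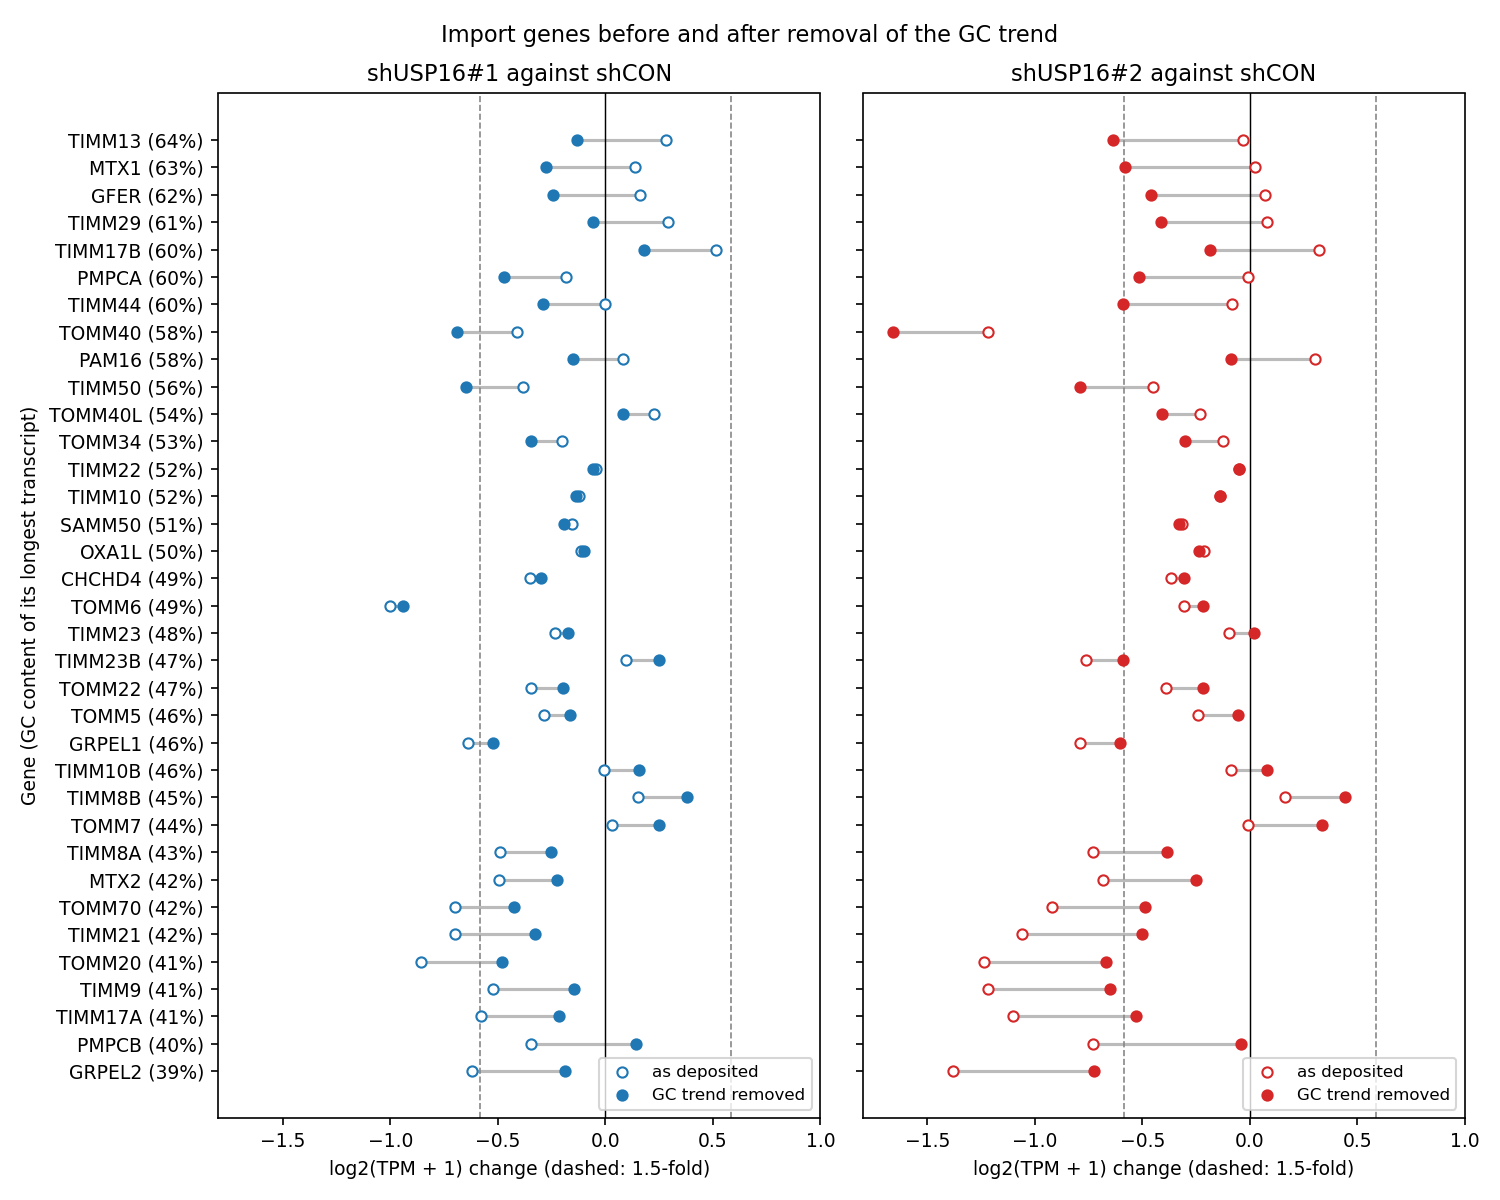
Log2 fold changes of the 35 import genes against shCON as deposited (open) and with the GC trend of all tested genes removed (filled), ordered by GC content, with shUSP16#1 on the left and shUSP16#2 on the right and dashed lines at 1.5-fold. Genes of low GC content move to higher values and genes of high GC content to lower values, which leaves TOMM40 and TIMM50 beyond the lower dashed line in both panels.

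Transcripts that hold a site for a hairpin's seed were compared with those that do not. The site for shUSP16#1, ATGTTTA, was found in the longest transcript of 9 of the 35 import genes (25.7%), where 25.5% of all tested genes held it. These were TOMM20, TOMM40, TOMM70, TIMM17A, TIMM21, GRPEL1, GRPEL2, PMPCB and OXA1L, which include the 5 genes lower under both hairpins. Their median log2 fold change under shUSP16#1 was -0.62, against -0.08 in import genes without the site, and all tested genes gave -0.46 and -0.08. The import transcripts with the site were also longer (median 3095 bases against 1618) and lower in GC content (41.6% against 51.1%). The site for shUSP16#2, CAAGATT, was in TOMM22, TOMM70, TIMM17A, TIMM23B, TIMM50, TIMM10B, GRPEL2, PMPCB and OXA1L (25.7%, and 22.1% of all tested genes), with medians of -0.73 with and -0.13 without it under shUSP16#2. All tested genes gave -0.69 and -0.29. Import transcripts with this site were again longer (median 2572 bases against 1674.5) and lower in GC content (46.1% against 51.1%). The part of the seeds in these differences was not tested, and a match of 7 bases is a description and not a site shown to act.

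The promoters of the import genes were searched on both strands for 3 short motifs in the 250 bases before the RefSeq start (GRCh38.p14), which was given for 33 of the 36 genes. The E-box CACGTG, bound by factors such as Myc, was in 1 of the 33 promoters (TOMM20), where 9.0% of the promoters of tested genes and 6.49% of all promoters held it. The ETS core CCGGAAG was in 11 of the 33 (33.3%), beside 16.7% and 8.82%. The 11 were TOMM20, TOMM70, GRPEL2, TOMM6, PMPCB, TIMM23, TIMM23B, TIMM10B, TIMM10, TIMM13 and TIMM29. Only in GRPEL2, TOMM6, TIMM23, TIMM23B and TIMM29 did an ETS core lie wholly before every annotated start of the gene. In TOMM20, TOMM70, PMPCB, TIMM10B, TIMM10 and TIMM13 it lay at least partly inside the annotated gene. The shares of the other promoters were not split in this way. TIMM23 and its copy TIMM23B have nearly identical promoters, so they do not count as separate cases. The 33 promoters include that of TOMM20L, which was below the minimum. The core of the NRF1 motif, CGCATGCG, was in 3 of the 33 (CHCHD4, TOMM7 and TIMM9), beside 3.57% and 1.86%. NRF1 and ETS-family factors are known regulators of nuclear genes for mitochondrial proteins. CACGTG and CGCATGCG read the same on both strands. TOMM40, TIMM17A and TIMM21, at least 2-fold lower under shUSP16#2, held none of the 3 motifs in the bases searched. For TOMM40 these bases lay wholly inside the annotated gene. The sequence before its first annotated start was therefore not searched, and whether it holds a motif is not known. The same limit applied to TOMM70, TIMM13, TIMM44, TIMM50, TIMM17B, TIMM8A and PAM16. The promoters of TOMM20, GRPEL2 and TIMM9 are shown as examples of the E-box, the ETS core and the NRF1 core, in capitals. TOMM20 was the only one with the E-box, and GRPEL2 and TIMM9 were picked for being at least 2-fold lower under shUSP16#2. Each promoter shown is printed 5′ to 3′ on the strand of the gene, and stops before the first base of any annotated transcript of the gene. TOMM20 also holds an ETS core in its window, in bases that are not printed.
TOMM20, E-box, chr1:235128937-235129087, minus strand: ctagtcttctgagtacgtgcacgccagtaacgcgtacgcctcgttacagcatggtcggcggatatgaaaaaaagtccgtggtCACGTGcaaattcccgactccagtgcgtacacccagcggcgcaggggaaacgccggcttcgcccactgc
GRPEL2, ETS core, chr5:149345249-149345429, plus strand: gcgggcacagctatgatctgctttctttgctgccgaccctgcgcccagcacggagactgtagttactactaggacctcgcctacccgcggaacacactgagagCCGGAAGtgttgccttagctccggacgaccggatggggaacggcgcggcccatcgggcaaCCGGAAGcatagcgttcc
TIMM9, NRF1 core, chr14:58427615-58427781, minus strand: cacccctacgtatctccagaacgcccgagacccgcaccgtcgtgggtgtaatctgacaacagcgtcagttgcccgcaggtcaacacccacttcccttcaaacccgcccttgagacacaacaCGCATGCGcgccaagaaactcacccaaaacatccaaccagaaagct
No factor's binding was measured here.

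Genes that work with the import machinery gave a lower median. Over 34 such genes, listed by role, the log2 fold changes had medians of -0.50 and -0.54, and 12 were at least 1.5-fold lower under both hairpins (AGK, DNAJC11, HSP90AA1, HSPA8, HSPA9, HSPE1, YME1L1, ATAD1, AFG3L2, HSPD1, APOOL and MTX3) and 0 higher, beside the 20.8% and 4.03% of all tested genes. HSPA9, the motor chaperone itself, was at 185.28 TPM with shCON, 96.50 TPM with shUSP16#1 and 79.76 TPM with shUSP16#2. HSPD1, the folding chamber of the matrix, was at 485.81, 222.19 and 171.74 TPM. HSPE1, its lid, was at 1155, 732.3 and 595.7 TPM. AGK, a subunit of the TIM22 complex, was at 30.89, 17.73 and 8.24 TPM, next to the nearly level TIMM22. With the GC trend removed, DNAJC11, HSP90AA1, HSPA8, HSPA9, HSPE1, AFG3L2, HSPD1 and APOOL, 8 of these 34 genes, were lower under both hairpins, beside 12.3% of all tested genes. For comparison, the 78 genes of the mitochondrial ribosome had medians of -0.12 and -0.25, with 12 lower under both hairpins, and the 38 genes of complex I had medians of -0.14 and -0.11, with 0 lower under both. None of these differences between lists was tested.

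For 18 of the 36 import genes, another gene with at least 1 TPM in a library overlaps on the genome, and whether reads were counted by strand is not given in the sources used here. SDHD, which overlaps TIMM8B on the other strand, was at 134.59, 69.34 and 71.16 TPM, unlike TIMM8B itself. DNAJC2, which overlaps PMPCB on the other strand, was at 22.88, 9.26 and 5.51 TPM, and PMPCB was past 1.5-fold under shUSP16#2 only. KIAA0586, which overlaps TIMM9 on the other strand, was at 12.23, 5.61 and 4.38 TPM, and TIMM9 was past 1.5-fold under shUSP16#2 only. On the other strand, ARFIP2 overlaps TIMM10B at 68.89, 64.94 and 66.81 TPM, and ABR overlaps TIMM22 at 32.18, 36.02 and 26.68 TPM. PQBP1 overlaps TIMM17B on the other strand, at 83.49, 79.75 and 75.13 TPM. LMNB2 overlaps TIMM13 on the same strand, at 141.38, 127.53 and 111.62 TPM. The part of overlapping reads in the values of these import genes, and of the others with an overlap, was not tested.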

How the data were processed

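RNA was extracted with Trizol from PC3 cells expressing shCON, shUSP16#1 or shUSP16#2, and TruSeq libraries were sequenced by Majorbio, with 1 library per condition. The authors deposited a table of TPM values made on the Majorbio Cloud Platform. The submitters' processing notes name CASAVA, HISAT2 and hg19, and the quantification tool is not given in the sources used here. The table holds no coordinates, and 58516 of its 60930 identifiers are in GENCODE 29 (GRCh38), from which coordinates, transcript length and GC content were taken. It also holds 3 columns that repeat the TPM columns and annotation to GO and KEGG terms, which were not used. TPM keeps no record of depth, so depth is unknown and no interval was given.

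For names listed more than once the copy with the highest mean was kept (1211 left out). Changes were taken as differences of log2(TPM + 1), a scale that understates changes of low genes, for the 13637 names with a mean of at least 1 TPM. The GC trend was removed as the median of 50 bins over the 13296 genes with a GC value, with the overall median added back. Scripts (Python 3.11.15, pandas 2.3.3, numpy 2.4.6, scipy 1.17.1, matplotlib 3.10.9) were tested on simulated data. Hairpin sequences came from the study's supplement and promoters from RefSeq.

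The members, lists and limits were chosen with earlier results of these data known. Genes given with values were those 1.5-fold lower or higher under both hairpins, the pore, insertase and catalytic subunits with TIMM44, the paralog pairs and the 3 highest and 3 lowest members. TOMM5, TOMM22, TOMM34, TIMM9, TIMM13, TIMM29, TIMM50, PAM16, PMPCA and the named genes outside the import list, other than USP16 and the cell markers, are not named by this rule, and were picked with their values in view. Alternatives were a pseudocount of 0.1, centring, no minimum, a minimum of 5 TPM, GC trend removal and rescaling over protein-coding genes. Some cell markers are not reported here.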

Additional observations from a re-analysis of the deposited data

Results flagged for a closer look

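TIMM23B, the copy of TIMM23, lay above shCON under shUSP16#1 and below it under shUSP16#2, and differed by -0.86 on the log2 scale between the hairpins (shUSP16#2 minus shUSP16#1). Its levels were 12.19 TPM with shCON, 13.11 TPM with shUSP16#1 and 6.78 TPM with shUSP16#2, the lowest levels among the 35 tested import genes in each library. The difference was not tested, since each hairpin had 1 library. TIMM23, which is nearly identical in sequence, was at 129.13, 109.63 and 120.55 TPM, and how reads were divided between these genes is not given in the sources used here.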

How the results depend on the processing

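Centring on the median change of all tested genes (-0.17 and -0.37) moved the median of the import genes to -0.031 under shUSP16#1 and turned it to 0.13 under shUSP16#2. It left 1 import gene lower under both hairpins (TOMM20), beside 11.2% of all tested genes, and made 1 higher under both (TIMM17B), beside 9.74%. With the GC trend removed the median under shUSP16#2 was -0.39, and 2 import genes (TOMM40 and TIMM50) were lower under both hairpins. GC content of the transcript nearest the deposited length, an alternative chosen after seeing the data, also gave 2, the same genes. A pseudocount of 0.1 and rescaling over protein-coding genes each gave 6 import genes lower under both hairpins, with TIMM17A added to the 5, beside 24.9% and 22.9% of all tested genes, and the medians stayed within 0.1 of those reported. No minimum and a minimum of 5 TPM left the 5 genes as they were. Of the 70 fold changes of single import genes, 20 changed sign with centring, 16 with the GC trend removed, 15 with its alternative and 6 with rescaling, and none of these was past 1.5-fold as reported. No paired analysis was possible because only 1 library stood for each group, and for the same reason no library could be left out. Depth is unknown, so counting error could not be given.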

Other observations

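The study's supplement lists genes raised by c-Myc in other samples, and 5 import genes are on that list. They were TOMM40 (log2 fold changes of -0.41 and -1.22), TOMM5 (-0.28 and -0.24), TIMM10 (-0.12 and -0.14), CHCHD4 (-0.35 and -0.37) and TIMM44 (0.00 and -0.08). TOMM40 was past 1.5-fold under shUSP16#2, 1 of these 5 genes, where 38.5% of all tested genes were lower. With the GC trend removed TOMM40 passed under both hairpins (-0.69 and -1.66), where 12.3% of all tested genes were lower, and TIMM44 narrowly under shUSP16#2 (-0.59). With GC content of the transcript nearest the deposited length, TIMM44 did not pass under shUSP16#2 (-0.50). Import genes that are not on the list also passed under shUSP16#2, among them GRPEL2 (-0.72) and TOMM20 (-0.67). The share of all tested genes on the list was not counted, nor that lower under shUSP16#2 with the GC trend removed.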
